A study of Homo sapiens with 12 samples.

Results

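MicroRNA host genes are the genes whose long primary transcripts carry a microRNA hairpin in an exon or an intron, and the 73 named for it in the style of MIR22HG or MIR100HG are described here in Ewing sarcoma cells with and without induced c-Jun and c-Fos. Membership was set by symbol alone, taking every gene whose symbol starts with MIR, ends with HG and has only letters and digits between. The count table held 58721 genes, and 72 of the 73 members are annotated as lncRNA. The rule itself was chosen with earlier results of these data known. Drosha cuts the hairpin out of such a transcript, Dicer trims it, and an Argonaute protein uses the resulting short RNA to find messenger RNAs, mostly by pairing with bases 2 to 8 of the microRNA, the seed. The rest of the host transcript can be spliced and polyadenylated, and the reads counted here, from polyadenylated RNA, lie over its exons. A value is thus read as a level of the host transcript and not of the microRNA. The count ignored strand, so reads from introns of a surrounding gene on either strand that lie over a host exon are included. AP-1, the dimer of a Jun and a Fos protein, is a transcription factor that responds to growth signals and stress.

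EW8 and TC71 are established Ewing sarcoma cell lines. Both carried a pair of lentiviral constructs, the c-Jun and c-Fos coding sequences joined by a self-cleaving peptide behind a doxycycline-responsive TRE3G promoter, and the Tet-On 3G transactivator behind the EF1 alpha promoter, and were selected with antibiotics. There were 4 groups of 3 libraries, EW8 and TC71 each with vehicle (DMSO) or with doxycycline at 2000 ng/ml, all for 72 h, 12 libraries in all. The labels give the vehicle groups the genotype WT and the doxycycline groups AP1_overexpression, but the treatment text puts the inducible system in the cells of every group. Cells lacking the transgenes but given doxycycline were not analysed here, so the drug itself and the induced proteins cannot be told apart. Nothing in the labels says that the libraries of a group came from separate cultures, so p-values measure the spread between these libraries, which may be technical.

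Some hosts carry microRNAs with the same seed. Examples with the seeds of miR-100, let-7 and miR-125b are shown first, whether or not the host was called. They are written 5′ to 3′ from RefSeq (GRCh38.p14), with the seed in capitals. Of the 73 hosts, 64 held at least 1 RefSeq microRNA gene inside their span on the same strand, 109 in all, of which 71 lay in an intron, 33 in an exon and 5 across an exon edge (13 of them, listed as mature sequences without a hairpin, were placed by the mature part). MIR100HG, on the minus strand at chr11:122028327-122556721 (hg38), holds miR-125b-1, let-7a-2 and miR-100 in its introns, and MIR99AHG, on the plus strand at chr21:15928296-16645065, holds miR-99a, let-7c and miR-125b-2 in its introns.
hsa-miR-100-5p (MIR100HG): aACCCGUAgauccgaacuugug
hsa-miR-99a-5p (MIR99AHG): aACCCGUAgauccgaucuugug
hsa-let-7a-5p (MIR100HG and MIRLET7BHG): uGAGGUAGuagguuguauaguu
hsa-let-7i-5p (MIRLET7IHG): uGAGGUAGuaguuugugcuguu
hsa-let-7c-5p (MIR99AHG): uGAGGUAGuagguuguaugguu
hsa-miR-4458 (MIR4458HG): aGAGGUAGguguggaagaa
hsa-miR-125b-5p (MIR100HG and MIR99AHG): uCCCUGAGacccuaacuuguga
The first pair shares one seed, the let-7 members and miR-4458 share another, and miR-125b-5p is made from both MIR100HG and MIR99AHG. Further hosts that were called in a line and whose microRNAs are well studied carry the following.
hsa-miR-22-3p (MIR22HG): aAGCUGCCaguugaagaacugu
hsa-miR-221-3p (MIR222HG): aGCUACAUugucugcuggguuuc
hsa-miR-222-3p (MIR222HG): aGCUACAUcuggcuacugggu
hsa-miR-23a-3p (MIR23AHG): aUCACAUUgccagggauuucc
hsa-miR-27a-3p (MIR23AHG): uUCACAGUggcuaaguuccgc
hsa-miR-24-3p (MIR23AHG): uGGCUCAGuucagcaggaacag
hsa-miR-34a-5p (MIR34AHG): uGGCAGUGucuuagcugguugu
hsa-miR-31-5p (MIR31HG): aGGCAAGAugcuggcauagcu
hsa-miR-181a-5p (MIR181A1HG and MIR181A2HG): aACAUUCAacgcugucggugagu
hsa-miR-17-5p (MIR17HG): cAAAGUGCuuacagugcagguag
The microRNAs of MIR22HG, MIR23AHG, MIR34AHG and MIR17HG lie in exons of their host, and those of MIR222HG, MIR31HG, MIR181A1HG and MIR181A2HG in introns.

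Total counts ran from 42860665 to 60853649 per library, with each mate of a read pair counted, so 6 counts (3 read pairs) were 0.0966 to 0.145 CPM (read counts brought to a common library size after TMM scaling). A group with at most 6 counts in each of its libraries is called at the floor, folds against it are given as bounds, and this covers counting error only. The induction was present: JUN went from 19.8 to 24.6 CPM in the EW8 vehicle libraries to 422 to 504 CPM with doxycycline, and from 18 to 25.3 CPM to 705 to 814 CPM in TC71, with transgene reads included. All 9 Ewing sarcoma markers were above the floor in all groups. The summed level of 3 endothelial markers was 7.22 to 8.48 CPM in EW8 vehicle and 36.1 to 43.7 CPM with doxycycline (TC71, 0 to 0.0388 and 3.75 to 4.61 CPM), and that of 3 epithelial markers 4.71 to 6.36 and 30.4 to 34.2 CPM (TC71, 2.39 to 5.97 and 15.2 to 16.8 CPM). Of 4 leukocyte markers, 3 were above the floor in EW8, with a sum of 64.9 to 80.2 CPM, nearly all of it PTPRC, and CD3E was at 0 in the EW8 doxycycline libraries. These lists moved with treatment or line as host genes did, and their part in the results was not tested. TC71 vehicle replicate 1 stood apart from its group, with a median absolute log2 difference of 0.242 and 0.256 to the other replicates, against 0.144 between those.

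Many host genes were silent or nearly so in these cells. Of the 73, 14 had 0 counts in all 12 libraries and 15 more never exceeded 6 counts. The remaining 44 passed 6 counts in some library, but only 30 passed the low-count filter and were tested. Those left untested include MIR155HG, host of a microRNA of activated immune cells, with at most 10 counts in any library, MIR130AHG with at most 30 and MIR3667HG with at most 26. MIR142HG and MIR223HG, whose microRNAs belong to blood cells, had at most 2 and 0 counts. At the floor were 37 host genes in EW8 vehicle, 37 in EW8 doxycycline, 45 in TC71 vehicle and 41 in TC71 doxycycline.

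With c-Jun and c-Fos induced, a minority of the tested host genes rose, a few fell, and the rest were not called. In EW8, 10 of 30 rose and 2 fell, where 11.4% of all 21013 tested genes rose and 3.38% fell (edgeR quasi-likelihood test; a call needs a Benjamini-Hochberg adjusted p below 0.05 and a log2 fold change past 1 in size). In TC71, 7 of 30 rose and 2 fell, where 12.3% of all tested genes rose and 3.67% fell. Passing the filter on the vehicle libraries alone were 23 of the 30, and the 7 that needed the doxycycline libraries to pass (MIR181A1HG, MIR3681HG, MIR3945HG, MIR31HG, MIR3663HG, MIR3677HG and MIR4733HG) hold 4 of the 10 that rose in EW8 and 1 of the 7 in TC71, so these counts partly follow from the filter. This holds for other genes too. Over all tested genes, 1608 of the 2401 rises in EW8 and 1941 of the 2583 in TC71 passed on the vehicle libraries alone. For host genes these were 6 of 10 and 6 of 7. The median fitted log2 fold change of the 30 was -0.15 in EW8 and 0.38 in TC71, beside -0.03 and 0 over all tested genes. Setting each host gene that was at the floor in 1 group to its bound, and leaving out those at the floor in both, moved the medians to -0.03 and 0.48. Both lines share 6 of the rises: MIR100HG, MIR22HG, MIR3681HG, MIRLET7IHG, MIR222HG and MIR23AHG.

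**Figure D1:**
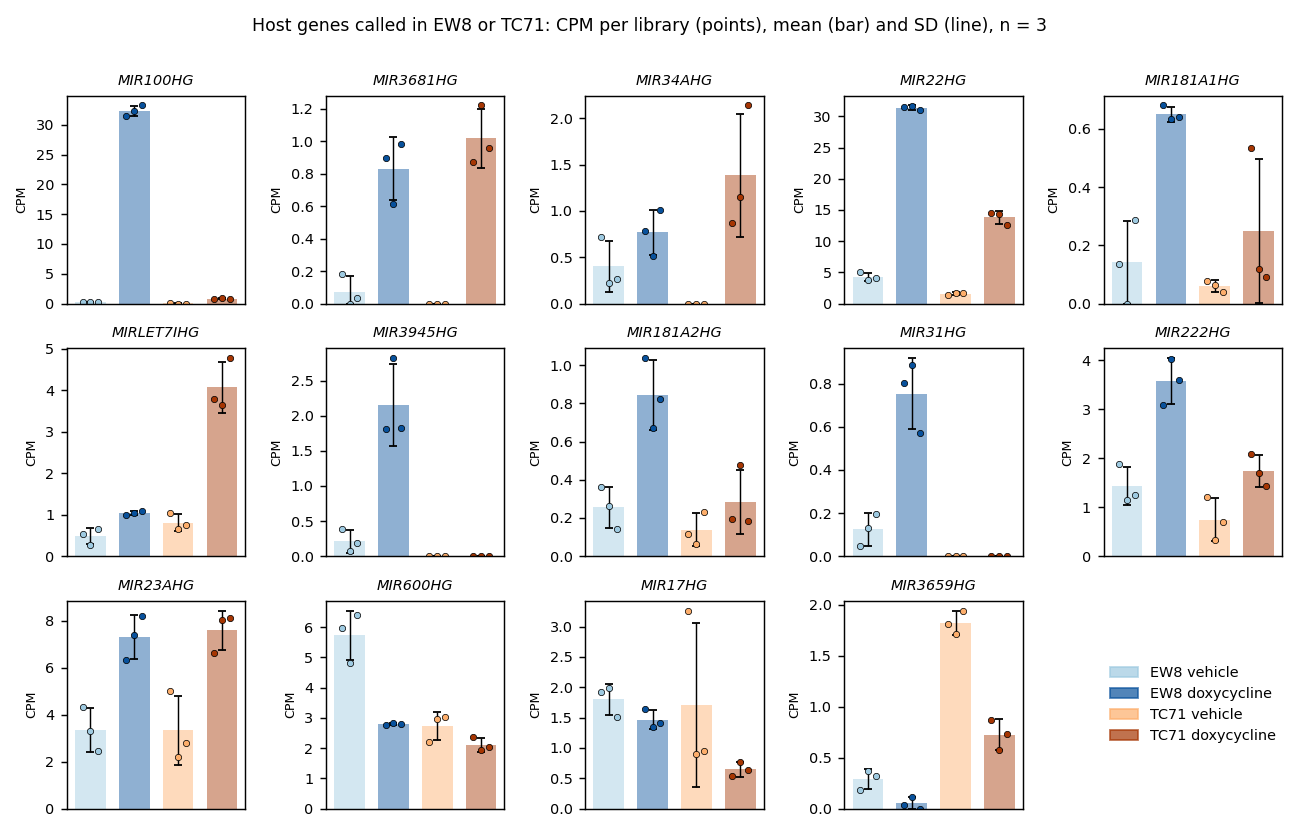
CPM of the 14 host genes called higher or lower in EW8 or TC71, 1 panel each with its own linear axis from 0. Points are libraries, bars are means and lines are SD (n = 3). MIR22HG reached 31.0 to 31.7 CPM in the EW8 doxycycline libraries and 12.6 to 14.5 CPM in those of TC71, and MIR31HG and MIR3945HG were at 0 in all 6 TC71 libraries.

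The host of miR-100, let-7a-2 and miR-125b-1 changed most in EW8. MIR100HG was at 0.226, 0.305 and 0.287 CPM in the EW8 vehicle libraries and at 31.5, 32.3 and 33.3 CPM with doxycycline. This is a 119-fold higher level (log2 fold change 6.87, SE 0.21, adjusted p = 8.18e-15), with no overlap between the groups. In TC71 it was at 0.0382, 0 and 0 CPM with vehicle and at 0.824, 0.860 and 0.774 CPM with doxycycline. There the rise was at least 7.04-fold against the floor (adjusted p = 5.14e-09), and the level reached stayed below 1 CPM in every library, while every EW8 doxycycline library was above 31 CPM. The responses of the lines were not called different (-1.06 on the log2 scale, SE 1.35, adjusted p = 0.709). With TC71 vehicle at the floor, the size of that difference is not measured. Of its exonic bases, 1.17% are shared with other annotated genes on the same strand, where this counting drops reads.

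The host of the sister cluster did not follow. MIR99AHG was at 2.03, 3.25 and 4.04 CPM in EW8 vehicle and at 2.40, 2.81 and 2.28 CPM with doxycycline, and these groups overlapped (log2 fold change -0.32, SE 0.27, adjusted p = 0.382). The TC71 libraries read 1.36, 1.48 and 1.59 CPM with vehicle and 0.679, 0.621 and 1.00 CPM with doxycycline. The TC71 groups did not overlap, and the log2 fold change of -0.94 (SE 0.30, adjusted p = 0.0158) passed the test but not the limit on size. So of the pair whose products share the seed ACCCGUA, the host that was low with vehicle rose and the other did not rise.

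The let-7 seed GAGGUAG occurs in 6 hosts, of which 5 were tested, MIR100HG and MIR99AHG among them. MIRLET7IHG, on the plus strand at chr12:62602752-62622213, was at 0.541, 0.262 and 0.647 CPM in EW8 vehicle and at 1.00, 1.03 and 1.10 CPM with doxycycline. In TC71 it was at 1.03, 0.644 and 0.737 CPM with vehicle and at 3.78, 3.66 and 4.78 CPM with doxycycline. It therefore rose 2.16-fold in EW8 (log2 1.09, SE 0.34, adjusted p = 0.0133) and 5.06-fold in TC71 (2.34, SE 0.32, adjusted p = 6.55e-06), and neither pair of groups overlapped. The EW8 call was lost without EW8 vehicle replicate 2, the lowest of the 3, where the log2 fold change was 0.80 (adjusted p = 0.0654). The difference between the lines, 1.25 on the log2 scale (SE 0.46), had an adjusted p of 0.0676. MIRLET7BHG, which holds let-7b and let-7a-3 in an exon, was at 1.94, 3.20 and 3.81 CPM in EW8 vehicle and at 3.83, 3.85 and 3.81 CPM with doxycycline (adjusted p = 0.299). For TC71 the level was 5.08, 2.91 and 3.59 CPM with vehicle and 3.85, 4.13 and 2.57 CPM with doxycycline, 2 groups that overlapped (adjusted p = 0.727). MIR4458HG, whose miR-4458 lies in an exon, was called in neither line (adjusted p = 0.152 in EW8 and 0.141 in TC71). MIR4500HG, the one untested host with this seed, had at most 4 counts in any library.

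LIN28B, the RNA-binding protein that blocks the processing of let-7 precursors, is the counterpart to these hosts in the pathway. Its level was 37.6, 36.6 and 40.4 CPM in EW8 vehicle and 20.1, 17.7 and 17.5 CPM with doxycycline. It fell in EW8 by 1.05 on the log2 scale (SE 0.08, adjusted p = 4.69e-09). In TC71 it was at 83.1, 80.7 and 74.1 CPM with vehicle and at 45.3, 40.4 and 44.2 CPM with doxycycline (-0.87, SE 0.08, adjusted p = 3.03e-08), past the test but under the limit on size. The EW8 call rests on that limit and was lost in some of the alternatives. LIN28A had at most 0.0644 CPM in any library and was not tested.

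MIR22HG, host of miR-22 on the minus strand at chr17:1711493-1717174, had the highest level per exon length of the 30 tested hosts in both doxycycline groups. It was at 5.01, 3.81 and 4.10 CPM in EW8 vehicle and at 31.5, 31.7 and 31.0 CPM with doxycycline. The TC71 values were 1.30, 1.71 and 1.65 CPM with vehicle and 14.5, 14.4 and 12.6 CPM with doxycycline. The rise was 7.29-fold in EW8 (log2 2.87, SE 0.13, adjusted p = 2.83e-12) and 8.91-fold in TC71 (3.15, SE 0.14, adjusted p = 1.97e-12), and the responses differed by 0.28 (SE 0.19, adjusted p = 0.352). Per kilobase of exon its mean went from 1.44 to 10.5 RPKM (CPM divided by the exon length in kilobases) in EW8 and from 0.520 to 4.63 RPKM in TC71. Among the same 30, MIR924HG came first per length in EW8 vehicle (2.02 RPKM) and MIR3659HG in TC71 vehicle (2.66 RPKM). MIR4435-2HG, whose hyphenated symbol is outside the rule, stood above MIR22HG with doxycycline, at 12.1 RPKM in EW8 and 5.32 RPKM in TC71. In EW8 vehicle it had 2.34 RPKM.

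Within the 73 hosts, MIR100HG and MIR22HG together carried most of the added transcript in EW8, and in TC71 it was mostly MIR22HG. The sums below leave out MIR4435-2HG, which is outside the 73. Its means were 30.7 CPM in EW8 vehicle and 159 CPM with doxycycline (TC71, 14.6 and 69.7 CPM). Summed over the 73 hosts, the level was 45.5 to 47.4 CPM in EW8 vehicle and 105 to 112 CPM with doxycycline, and 30.4 to 39.1 CPM and 53.6 to 56.2 CPM in TC71. Without the pair the ranges were 40.3 to 43.0 and 41.9 to 48.0 CPM in EW8, and 28.7 to 37.8 and 39.5 to 40.9 CPM in TC71. In the EW8 doxycycline libraries MIR100HG held 29.3% to 30.02% and MIR22HG 27.6% to 30.01% of all host gene reads, whereas in TC71 with doxycycline MIR100HG held 1.44% to 1.57% and MIR22HG 23.5% to 26.3%.

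**Figure D2:**
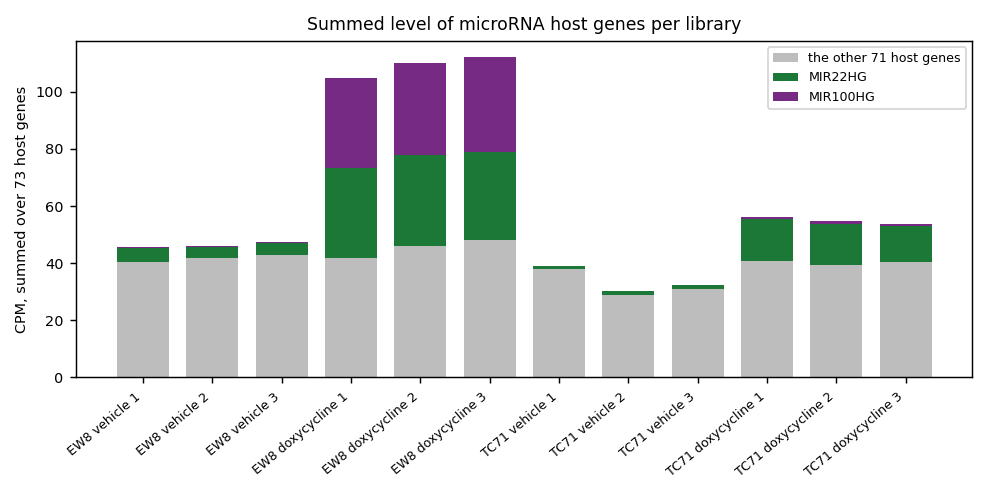
Stacked bars of CPM summed over the 73 host genes in each of the 12 libraries, split into MIR100HG, MIR22HG and the other 71. The EW8 doxycycline bars reach 105 to 112 CPM, and the grey part, the other 71 host genes, lies between 28.7 and 48.0 CPM in every library.

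Hosts of the paired clusters miR-221 and miR-222, and miR-23a, miR-27a and miR-24-2, rose by a little over 2-fold in both lines. MIR222HG, on the minus strand at chrX:45745211-45770274, carries microRNAs known to repress the cell cycle inhibitor CDKN1B. It was at 1.87, 1.16 and 1.26 CPM in EW8 vehicle and at 3.10, 4.03 and 3.61 CPM with doxycycline, and at 1.2, 0.338 and 0.699 CPM in TC71 vehicle and 2.08, 1.70 and 1.43 CPM with doxycycline. No groups overlapped within a line, and the rise was 2.51-fold in EW8 (log2 1.33, SE 0.34, adjusted p = 0.00415) and 2.33-fold in TC71 (1.23, SE 0.36, adjusted p = 0.00993). MIR23AHG, on the minus strand at chr19:13823880-13842928, was at 4.31, 3.29 and 2.44 CPM in EW8 vehicle and at 6.34, 7.39 and 8.20 CPM with doxycycline. In TC71 the values were 5, 2.21 and 2.79 CPM with vehicle and 6.62, 8.03 and 8.12 CPM with doxycycline. It rose 2.18-fold in EW8 (1.13, SE 0.26, adjusted p = 0.00139) and 2.28-fold in TC71 (1.19, SE 0.26, adjusted p = 8.13e-04), again without overlap. Of its exonic bases 12% are shared with ZSWIM4 on the opposite strand, where reads were dropped. Some of these calls sit near the limit on size: without TC71 vehicle replicate 2, the lowest of its group for both genes, MIR222HG had a log2 fold change of 0.87 and MIR23AHG of 0.96 in TC71, and without EW8 vehicle replicate 3 MIR23AHG had 0.98 in EW8.

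MIR3681HG, a host on the plus strand at chr2:11848622-12578348, was nearly silent with vehicle and present with doxycycline in both lines. In EW8 it was at 0.180, 0 and 0.0359 CPM with vehicle and at 0.895, 0.613 and 0.982 CPM with doxycycline (11.5-fold, log2 fold change 3.52, SE 0.77, adjusted p = 0.00132). The EW8 vehicle mean, 0.0721 CPM, lies below the level of 6 counts in any library (0.0966 CPM or more), so this fold is uncertain. Without EW8 vehicle replicate 1, the highest of its group, the other vehicle libraries are at the floor and the fitted log2 fold change was 5.24 (adjusted p = 2.44e-04), no measured fold. The TC71 level was 0 in the 3 vehicle libraries and 0.873, 1.22 and 0.956 CPM with doxycycline, at least 8.72-fold above the floor (adjusted p = 1.85e-05). The levels reached with doxycycline were similar in range in both lines. The fitted difference of the responses, 5.12 on the log2 scale (SE 1.68), was called at an adjusted p of 0.0436, but its size is set by the zeros of TC71 vehicle, and the call was lost in 13 of 19 alternatives, among them without EW8 vehicle replicate 1 (3.41, adjusted p = 0.204).

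MIR34AHG, host of the p53-activated miR-34a on the minus strand at chr1:9148011-9198906, was called in TC71 and not in EW8. It was at 0 in the 3 TC71 vehicle libraries and at 0.873, 1.15 and 2.14 CPM with doxycycline. This is at least 11.9-fold above the floor (fitted log2 fold change 9.09, adjusted p = 2.49e-06). EW8 expressed it already with vehicle, at 0.722, 0.218 and 0.269 CPM, and held 0.788, 0.514 and 1.00 CPM with doxycycline, so these groups overlapped (log2 fold change 0.94, SE 0.56, adjusted p = 0.198). The difference between the responses was called (adjusted p = 3.16e-04). Of its exonic bases 6.22% are shared with other genes, mostly with LNCTAM34A on the opposite strand.

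**Figure D3:**
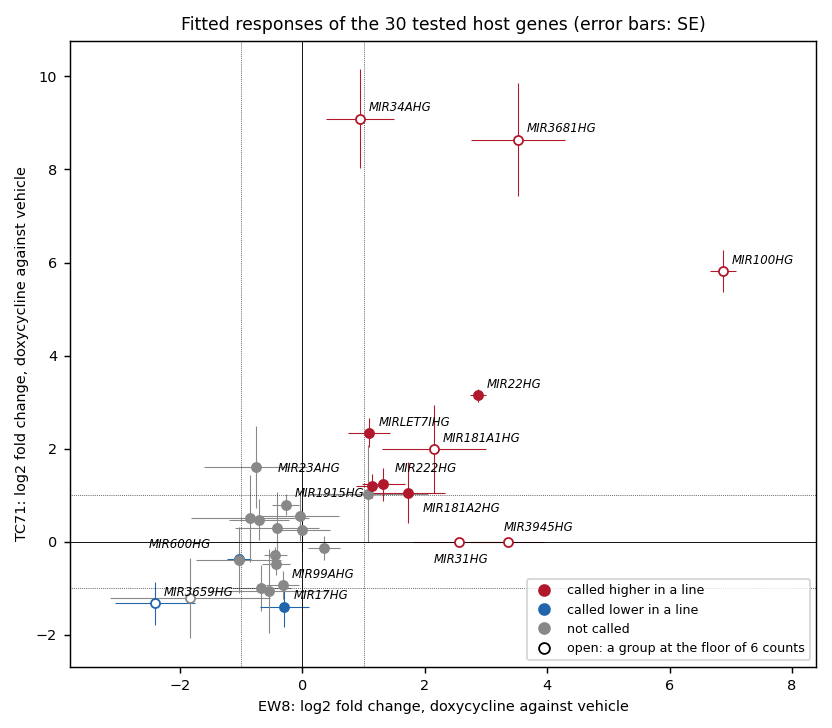
Fitted log2 fold changes of the 30 tested host genes in EW8 (x axis) and TC71 (y axis), with SE as error bars and dotted lines at the limits of -1 and 1. Red points were called higher and blue points lower in a line, and open points have a group at the floor, so their position is not a measured fold. MIR22HG lies near 2.87 and 3.15, MIR31HG and MIR3945HG lie at 0 on the TC71 axis because TC71 had no reads.

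A further 4 hosts rose in EW8 without a call in TC71, and they divide into those TC71 never expressed and those it expressed at low level. MIR3945HG, on the minus strand at chr4:184844585-184855751, was at 0.383, 0.0654 and 0.180 CPM in EW8 vehicle and at 1.81, 2.83 and 1.83 CPM with doxycycline (10.3-fold, log2 fold change 3.36, SE 0.60, adjusted p = 3.63e-04). Without EW8 vehicle replicate 1, the highest of its group, the log2 fold change was 4.08 (adjusted p = 3.18e-04). MIR3945HG had 0 counts in all 6 TC71 libraries. MIR31HG, host of miR-31 on the minus strand at chr9:21455642-21559669, was at 0.0451, 0.131 and 0.198 CPM in EW8 vehicle and at 0.805, 0.889 and 0.571 CPM with doxycycline (6.07-fold, 2.56, SE 0.74, adjusted p = 0.0119), and also had 0 counts in every TC71 library. Its EW8 vehicle mean, 0.124 CPM, lies below the level of 6 counts in EW8 vehicle replicate 1 (0.135 CPM), so this fold is uncertain. Its call was lost without EW8 vehicle replicate 1 or without EW8 doxycycline replicate 2, with adjusted p up to 0.0589, and 40.7% of its exonic bases are shared with the pseudogene IFNWP19 on the opposite strand. For both genes the test of the difference between lines has no information, because a response cannot be fitted to zeros.

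MIR181A1HG and MIR181A2HG carry the same mature miR-181a-5p on chromosomes 1 and 9. MIR181A1HG was at 0.135, 0 and 0.287 CPM in EW8 vehicle and at 0.680, 0.632 and 0.639 CPM with doxycycline (4.62-fold, adjusted p = 0.0484). In TC71 its vehicle group was at the floor, and the doxycycline libraries had 0.533, 0.119 and 0.0910 CPM (adjusted p = 0.0987). The EW8 call is a fragile one, lost in 10 of 20 alternatives, among them each one that left out a doxycycline library of EW8 or its vehicle replicate 1 or 2, with adjusted p up to 0.139, and without EW8 vehicle replicate 3 the log2 fold change went from 2.15 to 3.27. MIR181A2HG was at 0.361, 0.262 and 0.144 CPM in EW8 vehicle and at 1.04, 0.672 and 0.822 CPM with doxycycline (3.31-fold, log2 fold change 1.73, SE 0.61, adjusted p = 0.0278), and in TC71 at 0.115, 0.0644 and 0.233 CPM with vehicle and 0.194, 0.478 and 0.182 CPM with doxycycline, groups that overlapped (adjusted p = 0.212). It lost the EW8 call in 5 of 20 alternatives, among them those without EW8 vehicle replicate 2 or 3 or doxycycline replicate 1 or 3, with adjusted p up to 0.106. No difference between the lines in response was called for either host (adjusted p = 0.986 and 0.694), with SE of 1.54 and 0.91 on the log2 scale.

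A total of 3 host genes fell in at least one line. MIR3659HG, on the plus strand at chr1:38047314-38119025, fell in both: it was at 0.180, 0.370 and 0.323 CPM in EW8 vehicle and at 0.0358, 0.119 and 0 CPM with doxycycline, which is at the floor and at least 2.13-fold lower (adjusted p = 0.00566). In TC71 it went from 1.81, 1.71 and 1.94 CPM to 0.873, 0.574 and 0.728 CPM, a 2.51-fold lower level (log2 fold change -1.33, SE 0.46, adjusted p = 0.0253). The TC71 call was lost in 4 alternatives, each without replicate 2 or 3 of one of the TC71 groups, with adjusted p up to 0.0901. MIR600HG fell in EW8, from 5.98, 4.82 and 6.39 CPM to 2.76, 2.85 and 2.79 CPM (-1.04, SE 0.19, adjusted p = 2.61e-04), a value so close to the limit that 8 of 20 alternatives took it below 1 in size while the adjusted p stayed at or below 0.00408. In TC71 it was at 2.21, 2.96 and 3.03 CPM with vehicle and at 2.38, 1.94 and 2.02 CPM with doxycycline (adjusted p = 0.147). The responses of the lines were not called different (0.66, SE 0.28, adjusted p = 0.114).

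MIR17HG, host of the miR-17 to miR-92a cluster that MYC activates, is the third. TC71 libraries stood at 3.27, 0.902 and 0.951 CPM with vehicle and at 0.533, 0.765 and 0.637 CPM with doxycycline (log2 fold change -1.39, SE 0.43, adjusted p = 0.0130). The vehicle mean rests on replicate 1, the library that stood apart, and without it the log2 fold change was -0.60 and the adjusted p 0.188. The call was also lost without TC71 doxycycline replicate 1. In EW8 it was at 1.92, 1.98 and 1.51 CPM with vehicle and at 1.65, 1.34 and 1.42 CPM with doxycycline (adjusted p = 0.612). No difference of the responses was called for MIR17HG (-1.10, SE 0.59, adjusted p = 0.226). Its microRNA genes take up 13.5% of its exonic bases, where reads over both annotations were dropped.

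The responses of the 2 lines were called different for 3 host genes, all more positive in TC71, where 4.18% of tested genes were called in that direction and 2.87% in the other. Besides MIR34AHG and MIR3681HG this was MIR1915HG, on the minus strand at chr10:21492658-21497262. It was at 2.21, 3.66 and 3.27 CPM in EW8 vehicle and at 2.72, 2.13 and 2.72 CPM with doxycycline, and in TC71 at 2.86, 2.51 and 2.48 CPM with vehicle and 4.92, 3.78 and 4.96 CPM with doxycycline. The TC71 doxycycline libraries were all above those with vehicle (log2 fold change 0.80, SE 0.22, adjusted p = 0.00574), while the EW8 groups overlapped (-0.27, SE 0.22, adjusted p = 0.353). The difference of 1.07 (SE 0.31, adjusted p = 0.0206) was lost in 10 of 19 alternatives. No host gene was called with a lower response in TC71 in edgeR, also none at an unadjusted p under 0.05, and none in DESeq2.

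Without induction the lines already differed in their host genes. Between the vehicle groups 10 of the 30 were lower and 3 higher in TC71 than in EW8, where 18.9% and 11.6% of all tested genes were. Among the lower ones MIR22HG (2.77-fold, adjusted p = 7.17e-08), MIR4458HG (2.77-fold, adjusted p = 2.92e-05), MIR99AHG (2.10-fold, adjusted p = 0.00251) and MIR600HG (2.09-fold, adjusted p = 1.03e-04) were present in both lines. MIR210HG, host of the hypoxia-induced miR-210, was at 0.586, 1.09 and 0.683 CPM in EW8 vehicle and at 0.267, 0.177 and 0.0776 CPM in TC71 vehicle (4.52-fold lower, adjusted p = 0.0171), a call lost without EW8 vehicle replicate 2 or TC71 vehicle replicate 3. Those of MIR99AHG and MIR600HG fell under the limit on size without EW8 vehicle replicate 3, EW8 doxycycline replicate 1 or 2, or TC71 vehicle replicate 1. MIR34AHG was at least 3.46-fold, MIR100HG at least 2.34-fold, MIR3945HG at least 1.80-fold and MIR31HG at least 1.07-fold lower in TC71, where each was at the floor. MIR3681HG was called too, but its EW8 vehicle mean lies under the floor of TC71, so no fold is given, and the call was lost without EW8 vehicle replicate 1 (adjusted p = 0.108).

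Higher in TC71 with vehicle were MIR3659HG, MIR137HG and MIR3663HG. MIR3659HG stood 6.25-fold higher (log2 2.63, SE 0.50, adjusted p = 1.48e-04). MIR137HG, host of a microRNA known from neurons, was at 0.271, 0.0872 and 0.108 CPM in EW8 and at 0.535, 0.354 and 0.466 CPM in TC71 (2.91-fold, log2 1.54, adjusted p = 0.0316, and 2.17 without EW8 vehicle replicate 1), and its call was lost in 5 of 18 alternatives, among them those without replicate 2 or 3 of EW8 or 1 or 3 of TC71. MIR3663HG was at the floor in EW8 and at 0.0764, 0.499 and 0.699 CPM in TC71, at least 3.14-fold higher (adjusted p = 0.0148). The TC71 value of replicate 1 for this gene lay within the EW8 range, so these groups overlapped, and leaving out replicate 1 or 3 of EW8 or replicate 3 of TC71 took the adjusted p to as much as 0.0802.

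MIR31HG lies in 9p21, and values of some of its neighbours are given from the same libraries. KLHL9, at 14.7 to 15.5 CPM in TC71 vehicle, and MTAP, at 15.8 to 20.6 CPM there, were expressed in TC71, as was FOCAD at 55.4 to 58.0 CPM. CDKN2A, the gene of the p16 and p14ARF proteins, was at 26.6 to 30.5 CPM in EW8 vehicle and at 0.194 to 0.225 CPM in TC71 vehicle. The study lists CDKN2A as deleted in TC71. IFNE, which lies within the MIR31HG span, was not tested and had at most 0.268 CPM in any EW8 library and 0 in TC71. ELAVL2 was at 0.361 to 1.32 CPM in EW8 and at 0 in all 6 TC71 libraries, as MIR31HG was. A cause for the zeros was not tested.

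Of the 16 tested host genes called in neither line, MIR924HG and MIR4458HG stood high per exon length in vehicle cells of both lines. MIR924HG was at 5.75, 5.73 and 5.41 CPM in EW8 vehicle and at 3.99, 3.95 and 4.52 CPM with doxycycline (log2 fold change -0.44, SE 0.19, adjusted p = 0.0658), groups that did not overlap. In TC71 it was at 4.12, 5.04 and 5.92 CPM with vehicle and at 4.65, 3.11 and 4.55 CPM with doxycycline (adjusted p = 0.224). MIR4458HG was at 6.11, 7.10 and 6.83 CPM in EW8 vehicle and at 4.21, 5.12 and 5.62 CPM with doxycycline (adjusted p = 0.152), and at 3.00, 2.06 and 2.17 CPM and 1.94, 2.25 and 1.02 CPM in TC71 (adjusted p = 0.141). A miss of the threshold does not show that these levels were alike. Tested and called in none of the 4 comparisons were 10 host genes.

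Promoters of the hosts were read from RefSeq as windows of 250 bases before to 50 after a transcript start, 68 windows for 55 of the 73 genes. A RefSeq start can lie far from the start of the gene as counted. The distance was 133850 to 455875 bases for MIR100HG, 158494 for MIR3681HG, 16568 for MIR34AHG, 964 for MIR22HG and 129 for MIR31HG. For these hosts the start of the counted gene lay outside the windows and was not searched. The AP-1 motif was searched as TGACTCA or TGAGTCA, each the reverse complement of the other, so both strands are covered. It was in 4 of the 68 windows (5.88%), and in 4.95% of all 35116 windows in the table. Of the 9 hosts that rose and have a window, MIR181A1HG holds it, with its first base at -48 from the start. The stretch around it, on the minus strand at chr1:198937460-198937488 (GRCh38.p14) with the motif in capitals, is shown because it is the one match among the hosts that rose.
MIR181A1HG promoter: tatctctcacaTGACTCActgcccctgtc
The other matches were in MIR155HG, MIR219A2HG and MIR2117HG, which were not tested. A match is a string of letters and not a measured site, and enhancers lie outside these windows.

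Other gene lists were read in the same fits. Of 10 host genes with a hyphenated symbol, 6 were tested. MIR4435-2HG rose in both lines, from 31.7, 28.4 and 31.9 CPM to 154, 165 and 157 CPM in EW8, and from 14.1, 17 and 12.6 CPM to 71.5, 69.6 and 68.1 CPM in TC71. On the log2 scale this is 2.37 (SE 0.09, adjusted p = 1.09e-13) and 2.25 (SE 0.09, adjusted p = 2.70e-13). It has a near-identical copy, CYTOR, and reads mapping to both were left out, so its level is uncertain. MIR124-1HG, host of a neuronal microRNA, fell in EW8 from 4.53, 3.12 and 2.23 CPM to 0.573, 0.474 and 0.845 CPM (adjusted p = 3.00e-04) and was at 0 in TC71. MIR9-1HG, host of another neuronal microRNA, fell in TC71 from 1.62, 1.80 and 1.84 CPM to 0.727, 0.717 and 0.455 CPM (adjusted p = 0.00830), one of 2 in this list that fell there.

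Of 28 genes for the making and use of microRNAs, 27 were tested and LIN28B in EW8 was the one call in either line. None rose past the limit on size in edgeR or in DESeq2. With no limit on size, 4 were higher and 16 lower in EW8, beside 21.9% and 22% of all genes, and 4 higher and 15 lower in TC71, beside 25.1% and 20.4%. At an unadjusted p under 0.05, 4 and 5 were higher. Their fitted log2 fold changes ran from -1.05 to 0.62 in EW8 and from -0.87 to 0.64 in TC71. The host genes with neither group at the floor ran from -1.04 to 6.87 in EW8 (28 genes) and from -1.39 to 3.15 in TC71 (24 genes). DICER1, which trims the hairpin, was at 59.2 to 64.9 CPM in EW8 vehicle and 45.8 to 49.3 CPM with doxycycline, and at 116 to 129 and 145 to 156 CPM in TC71, with responses that differed by 0.63 on the log2 scale (SE 0.09, adjusted p = 4.84e-05).

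Among 45 protein-coding genes known to carry a microRNA, 44 were tested, with 5 higher (11.4%) and 5 lower (11.4%) in EW8 and 8 higher (18.2%) and 3 lower (6.82%) in TC71, beside 11.4% and 3.38% of all tested genes in EW8 and 12.3% and 3.67% in TC71. ATP2B2, a calcium pump, was at 0 in all vehicle libraries of both lines, and at 0.339, 0.526 and 0.683 CPM in TC71 with doxycycline. SLIT3, a secreted guidance protein, was at 0.0226, 0 and 0.198 CPM in EW8 vehicle and 0.967, 0.613 and 0.502 CPM with doxycycline (adjusted p = 0.0223). MEST, an imprinted hydrolase gene, fell in EW8 from 21, 19.6 and 19.7 CPM to 8.09, 6.94 and 8.24 CPM (adjusted p = 4.06e-06). HTR2C, a serotonin receptor, was called lower in TC71, from 0.153, 0.129 and 0.272 CPM to 0, 0.0956 and 0 CPM (adjusted p = 0.0466). Its doxycycline group is at the floor, so no fold is given. Of 24 tested small nucleolar RNA host genes (SNHG), none rose in either line in edgeR (2 and 1 at an unadjusted p under 0.05, none in DESeq2), while 2 fell in EW8 and 3 in TC71. With no limit on size, 1 was higher and 9 lower in EW8, beside 21.9% and 22% of all genes, and 1 higher and 17 lower in TC71, beside 25.1% and 20.4%. Of 411 tested LINC genes, 97 rose (23.6%) and 25 fell (6.08%) in EW8 and 78 rose (19%) and 19 fell (4.62%) in TC71, beside the shares of all tested genes given for the protein-coding hosts.

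**Figure D4:**
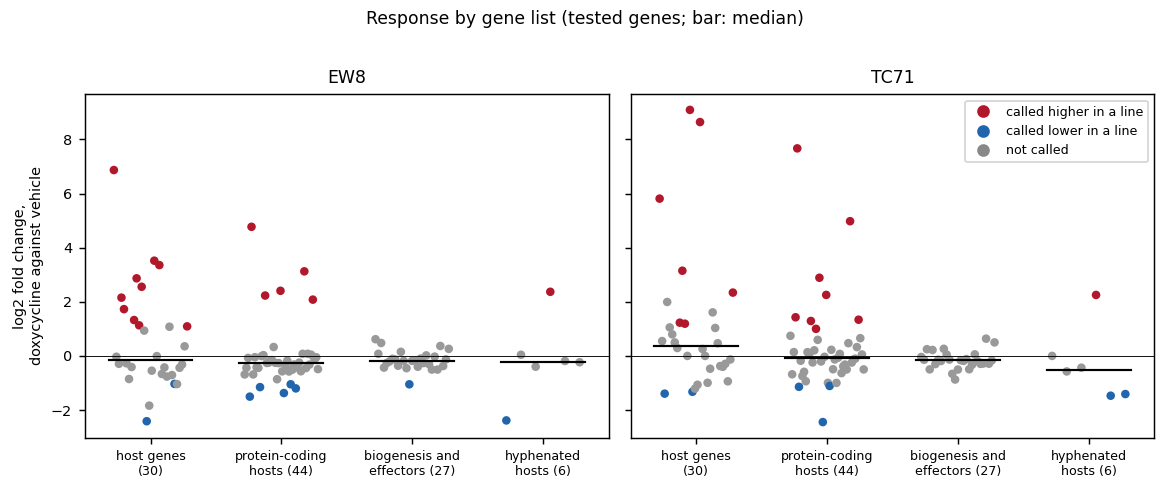
Fitted log2 fold changes with doxycycline in EW8 (left) and TC71 (right) for 30 host genes, 44 protein-coding hosts, 27 biogenesis and effector genes and 6 hyphenated hosts. Each point is a gene, coloured by its call in that line, and the bar is the median. Biogenesis genes lie between -1.05 and 0.64, while host genes reach 6.87 in EW8 and, for MIR22HG, 3.15 in TC71. Higher points in TC71 are fits against a group at the floor and no measured folds.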

How the data were processed

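Polyadenylated RNA of 12 samples was made into stranded TruSeq libraries and sequenced in pairs. The authors aligned reads with STAR to hg38 and deposited raw counts per GENCODE release 29 gene from featureCounts 2.0.1, which per the file headers ran without settings for pairs or strand and with its defaults for overlaps. Each mate was thus counted, and reads that mapped repeatedly or lay over more than 1 gene, on either strand, were dropped. The deposited exon length in bases served only for RPKM.

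Symbols were matched by gene identifier (58207 of 58721 genes, GENCODE release 44). Counts were filtered (filterByExpr), TMM-scaled and fitted in edgeR 4.0.16 (R 4.3.3) by quasi-likelihood over all 4 groups, with Benjamini-Hochberg adjustment over 21013 genes. DESeq2, the study's own choice, was run as an alternative (version 1.42.0), beside other scalings, filters, a replicate block, halved counts, fits of 1 line, and each library left out. The fit was tested on simulated data. SE is the log2 fold change divided by the root of F. Host genes and lists were chosen with earlier results of these data known. Host genes called in any comparison are named. From other lists, apart from the SNHG and LINC genes, the called genes with the largest mean change are named, and other genes were chosen after their values were seen. No single SNHG or LINC gene is named.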

Additional observations from a re-analysis of the deposited data

Results flagged for a closer look

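The responses of EW8 and TC71 to doxycycline differed, by an interaction test across all genes in edgeR, for 3 host genes and for 1 of the induced genes. MIR34AHG differed by 8.16 on the log2 scale (adjusted p = 3.16e-04), TC71 vehicle being at 0 in all 3 libraries, so the size depends on the prior count and is no measured fold. MIR3681HG differed by 5.12 (adjusted p = 0.0436), with the same zeros. MIR1915HG differed by 1.07 (adjusted p = 0.0206), with 3 of 3 TC71 doxycycline libraries above all TC71 vehicle libraries. FOS, whose counts include the transgene, differed by 2.21 (adjusted p = 6.41e-12), with vehicle levels of 35.9 to 37.6 CPM in EW8 and of 11.2 to 12 CPM in TC71. Groups of 3 libraries are too small for the search for single deviating samples.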

How the results depend on the processing

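Of 37 calls of host genes in the 4 comparisons, 19 were kept in every alternative in which the gene was tested, 18 were lost in at least 1, and none reversed. The 10 rises in EW8 became 7 to 10 and the 7 rises in TC71 5 to 7 when 1 library was left out. The 2 falls in EW8 became 1 with a minimum of 10 counts, 0 with the libraries of 1 line (MIR3659HG did not pass the filter there, and MIR600HG was under the limit on size), 1 with halved counts, and 1 to 2 without 1 library. The 2 falls in TC71 became 1 to 3 without 1 library. The 3 differences of response became 1 with halved counts and 1 to 3 without 1 library, and the 3 genes higher in TC71 vehicle 1 to 3. Same-numbered vehicle and doxycycline libraries did not deviate together (correlations from -0.03 to 0.01). This cannot show whether they were grown or prepared together. With a replicate block the falls in TC71 became 1 and the differences of response 1.

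Low counts limit most host genes: 43 of 73 were not tested, and many of the others stayed below 1 CPM. Hairpin processing was not measured.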
